A study of Rattus norvegicus with 44 samples.

Results

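MHC class II molecules are pairs of an alpha and a beta chain that present peptides from the endosomal pathway to CD4+ T cells. In the rat they are encoded in the RT1 complex as the D molecule (RT1-Da, alpha chain; RT1-Db1, beta chain) and the B molecule (RT1-Ba, alpha chain; RT1-Bb, beta chain). Cd74, the invariant chain, occupies the peptide groove during assembly, and Ciita is the coactivator that switches these genes on. B cells, dendritic cells and monocytes or macrophages are their usual sources in blood, and the choroid plexus, whose epithelium makes the cerebrospinal fluid, holds macrophages and dendritic cells in its stroma and on its surface. These 6 genes were chosen by their symbols in the platform annotation, out of 10412 genes on the array, and each was read from its brightest probe. The rule uses no measured value, though the set was picked with earlier results of these data known.

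Choroid plexus and trunk blood of male rats of the NCTR strain of Sprague-Dawley, 3 months old, were measured on 44 single-colour arrays in 11 groups of 4. All rats had received saline, had been exposed to environmentally-induced hyperthermia (EIH) or had received amphetamine at toxic doses (AMPH), and tissue was taken 3 h or 1 day later. Choroid plexus was measured after saline at 3 h and after EIH and AMPH at both times, each array being a pool of 3 rats. Blood was measured after saline, EIH and AMPH at both times, each array being 1 rat. No choroid plexus saline group of 1 day was analysed here, so both 1 day choroid plexus groups were set against saline at 3 h. For choroid plexus 1 day after EIH, the titles of the 4 arrays read control while their source and treatment labels read EIH, which was followed here. The blood arrays carry a tissue tag that mentions the striatum, whereas the protocol describes trunk blood. By their rat numbers, 17 blood rats also contributed to a choroid plexus pool, 2 of them to a pool of another time or treatment. Among the pools 5 numbers recur, so the arrays are not all independent. Some recurring numbers join different treatments or times, as in choroid plexus saline 3 h replicate 4 and AMPH 1 day replicate 2. Some rat numbers or labels may thus be wrong, which was not resolved here.

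The tissue labels were checked against markers. At saline 3 h, 15 of 16 measured choroid plexus epithelial genes were higher in choroid plexus than in blood, and all 10 erythroid and platelet genes were lower (median log2 difference -6.52). The median intensity of an array lay between 139 and 146 in the 24 arrays of 3 h and between 165 and 171 in the 20 arrays of 1 day. Values of the 2 times therefore appear to come from separate normalizations, and a difference between times also holds that between sets. Levels below are log2 intensities. They are compared between groups for the same probe and never between genes.

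The sequences just upstream of the genes are shown because these promoters are known for a shared array of motifs, the X box, bound by the RFX complex, and the Y box, an inverted CCAAT motif bound by NF-Y, on which Ciita assembles. Promoters of RefSeq (assembly GRCr8, from 250 bases before to 50 after the annotated start) were at hand for 5 of the 6 members. Each stretch is given 5′ to 3′ on the gene's own strand, and capitals mark matches to the X box pattern CNAGNNACNGATG, to the Y box (CTGATTGG or ATTGG, or CCAAT on the opposite strand) and to the cyclic AMP response element TGACGTCA. The X box pattern holds the letters that the promoters of RT1-Da, RT1-Db1, RT1-Bb and RT1-DOb share at this place, N elsewhere, so these 4 match it by construction. Their stretches were taken only where ATTGG followed within 30 bases, so in these 4 the Y box after it was required too. RT1-DOb and RT1-DOa, the chains of a modulator of class II peptide loading, are added since both fell in blood at 3 h; they were chosen with those values known.
RT1-Da: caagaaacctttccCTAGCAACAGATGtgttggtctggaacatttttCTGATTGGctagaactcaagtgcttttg
RT1-Db1: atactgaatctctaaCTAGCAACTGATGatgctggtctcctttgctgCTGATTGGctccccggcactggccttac
RT1-Bb: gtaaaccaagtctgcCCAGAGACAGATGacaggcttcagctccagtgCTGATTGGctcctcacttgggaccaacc
RT1-Ba: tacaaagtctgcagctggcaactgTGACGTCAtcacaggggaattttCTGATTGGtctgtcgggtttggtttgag
RT1-DOb: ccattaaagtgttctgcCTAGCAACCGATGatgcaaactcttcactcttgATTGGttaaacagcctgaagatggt
RT1-DOa: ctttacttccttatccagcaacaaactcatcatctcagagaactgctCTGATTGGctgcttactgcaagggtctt
Cd74: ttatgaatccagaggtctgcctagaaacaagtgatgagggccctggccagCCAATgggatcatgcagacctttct

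These stretches of 75 bases lie at chr20:4515316-4515390 (plus strand, RT1-Da), chr20:4560218-4560292 (minus strand, RT1-Db1), chr20:4604155-4604229 (minus strand, RT1-Bb), chr20:4576964-4577038 (plus strand, RT1-Ba), chr20:4627582-4627656 (minus strand, RT1-DOb), chr20:4758506-4758580 (minus strand, RT1-DOa) and chr18:56526967-56527041 (plus strand, Cd74). All are upstream of the annotated first base. The 4 RT1 members thus sit close together on chromosome 20, whereas Cd74 is on chromosome 18 and Ciita on chromosome 10. The X box pattern began at -85 from the start in RT1-Da, at -115 in RT1-Db1 and at -96 in RT1-Bb, and the Y box ATTGG followed it after 23, 22 and 22 bases. In RT1-DOb the 2 motifs were 20 bases apart, while RT1-DOa held the Y box at -107 and no match to the X box pattern. RT1-Ba held the Y box at -43 and the cyclic AMP response element at -69, with no match to the X box pattern as written, and Cd74 held the Y box at -189 on the opposite strand.

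Counting both strands of all 33469 promoters in the table, 0.206% held the X box pattern, 37.5% the Y box ATTGG, 3.5% its longer form CTGATTGG, which contains ATTGG, and 1.83% the cyclic AMP response element. The X box pattern followed by ATTGG within 30 bases on the same strand was found at 10 starts. Of these 4 belong to Vamp9, whose windows overlap and hold the same match. The others are 1 each of RT1-Da, RT1-Db1, RT1-Db2, RT1-Bb, RT1-DOb and RT1-CE10, a class I gene. RT1-Da, RT1-Db1, RT1-Bb and RT1-DOb match the pattern and its pairing with ATTGG by construction, so the 10 starts are not a count of independent sites. A match describes letters in this window and is not evidence that a factor binds there, and the absence of one says only that these letters are not in it.

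**Figure D1:**
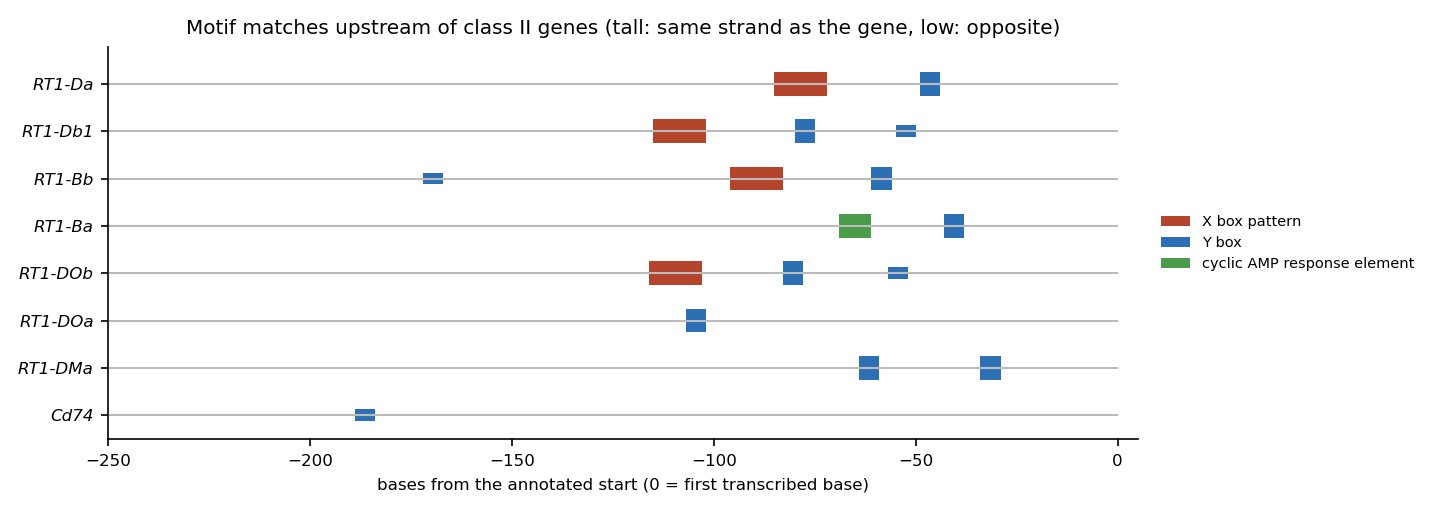
Positions of motif matches upstream of 4 class II RT1 members, 3 related RT1 genes and Cd74, in bases from the annotated start; tall bars are on the gene's strand and low bars on the opposite strand. In RT1-Da, RT1-Db1, RT1-Bb and RT1-DOb the X box pattern lies 20 to 23 bases before a Y box. The pattern was built from these 4 promoters where a Y box followed within 30 bases.

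For each of the 6 genes, the means of the 6 blood groups lay above those of the 5 choroid plexus groups. For RT1-Da the order ran from 13.89 ± 0.34 (mean log2 intensity ± SD, n = 4) in blood EIH 1 day, through 13.54 ± 0.44 in saline 1 day, 13.20 ± 0.25 in saline 3 h, 12.77 ± 0.78 in AMPH 1 day and 12.08 ± 0.64 in AMPH 3 h, to 11.27 ± 0.31 in EIH 3 h. Each neighbour in this order overlapped the next in its arrays. A step without overlap then separated blood EIH 3 h from choroid plexus saline 3 h (10.35 ± 0.16), the next in order. The other choroid plexus groups followed, overlapping in turn, down to AMPH 3 h (9.71 ± 0.32).

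Blood EIH 1 day had the highest mean for every member. Blood EIH 3 h had the lowest mean of the blood groups for RT1-Da, RT1-Ba, RT1-Db1, RT1-Bb and Ciita. For Cd74 the lowest was AMPH 1 day, at 12.07 ± 3.50, where replicate 4 measured 6.96 against 12.64, 14.20 and 14.49 in the others. The lowest blood group and the choroid plexus group of highest mean did not overlap in RT1-Da, RT1-Ba, RT1-Db1 and RT1-Bb. Over single arrays of all groups only RT1-Bb kept the tissues apart, its lowest blood array at 10.26 and its highest choroid plexus array at 10.03. In Ciita the step without overlap lay inside the blood groups instead, between AMPH 3 h (6.86 to 8.59) and EIH 3 h (5.59 to 6.78). Such orders of means and gaps between groups were not counted over all genes. At saline 3 h alone, 24.4% of all genes lay wholly lower in choroid plexus than in blood.

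**Figure D2:**
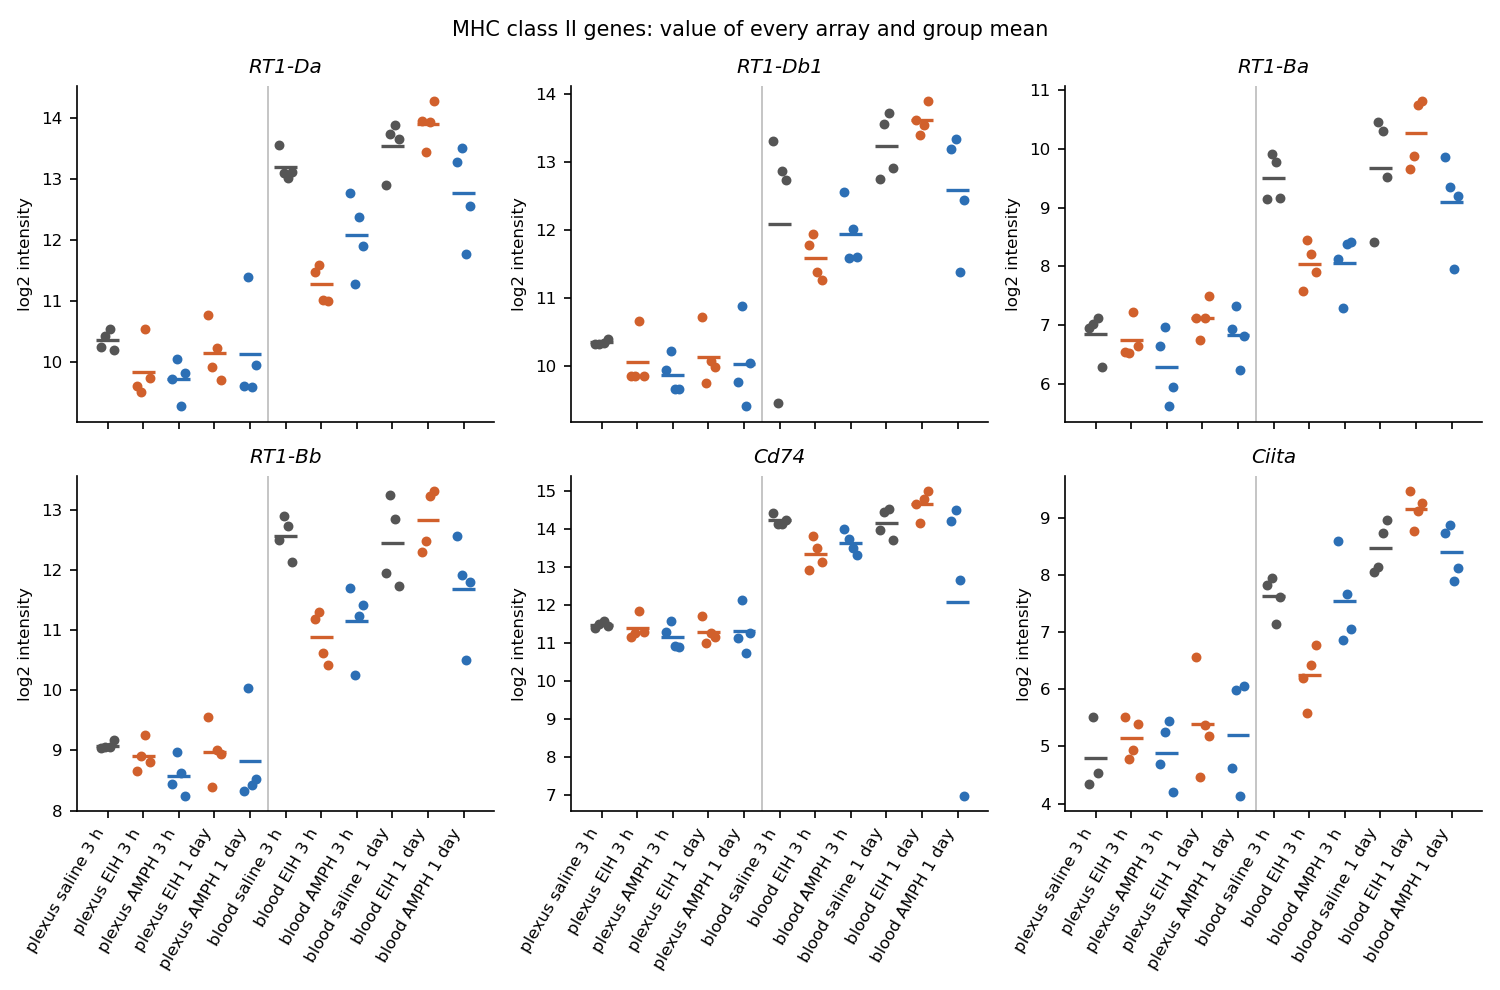
Log2 intensity of the brightest probe of each class II gene in every array, by tissue, treatment and time; points are arrays and bars are group means. Blood group means lie above those of choroid plexus, blood EIH 3 h is the lowest blood group in 5 of the 6 genes, and single low arrays stand out for RT1-Db1 (9.46) and Cd74 (6.96).

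Between the tissues at saline 3 h, class II genes were lower in choroid plexus. RT1-Da measured 10.25, 10.43, 10.54 and 10.20 in the choroid plexus pools and 13.56, 13.09, 13.02 and 13.11 in blood, a log2 difference of -2.84 ± 0.17 (SE), or 7.17-fold (95% interval 5.48 to 9.37). RT1-Bb measured 9.04, 9.05, 9.05 and 9.17 against 12.49, 12.90, 12.73 and 12.13, or 11.2-fold lower. No array of one tissue reached the other for either chain. Cd74, with 11.39 to 11.57 against 14.12 to 14.42, was 6.71-fold lower, RT1-Ba 6.28-fold and Ciita 7.14-fold, the last on 3 choroid plexus values.

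In the limma fit 5 of 6 members passed an adjusted p under 0.05 (Benjamini-Hochberg over all genes tested), each lower in choroid plexus, beside 24.3% of all genes called lower and 56.2% called in either direction. The same 5 lay wholly below blood in their arrays, beside 24.4% of all genes. The exception was RT1-Db1, at -1.75 ± 0.79 (adjusted p = 0.0957), for which blood saline 3 h replicate 2 measured 9.46 against 12.74, 12.88 and 13.31. The RT1-Db1 probe next in brightness read 12.71 in that same array. Without that array the RT1-Db1 difference was -2.63 ± 0.18 (adjusted p = 2.5e-05), and by the second probe it was -2.39 (adjusted p = 0.000131).

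The median difference of the 6 members was -2.79, beside 0.15 over all genes tested. Lists of leukocyte genes had larger ones: -3.80 for 13 B cell genes, -4.85 for 11 neutrophil genes and -5.05 for 15 T cell genes. The monocyte and macrophage list stood at -1.44 with 14 of 22 genes lower in choroid plexus and 5 higher, among them C1qa, a complement subunit made by tissue macrophages, by 3.42. In bulk tissue, fewer cells of a type and less RNA per cell cannot be told apart.

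Other genes of the pathway differed in both directions between the tissues. Of 14 measured genes for peptide loading, processing and co-stimulation, 7 were called lower and 3 higher in choroid plexus (median -0.98). RT1-DOb was lower by -4.28 ± 0.39 and Cd40, a co-stimulatory receptor, by -3.62 ± 0.24. Lysosomal proteases went the other way, with Ctsl at 4.58 ± 0.31 and Lgmn at 2.20 ± 0.14, while Ctss, the protease that trims the invariant chain, was lower in choroid plexus by -1.39 ± 0.14.

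In blood 3 h after hyperthermia, 3 of the 4 class II chains and Ciita had fallen. RT1-Da read 11.47, 11.59, 11.02 and 10.99 after EIH against 13.56, 13.09, 13.02 and 13.11 after saline, a log2 difference of -1.93 ± 0.35, or 3.81-fold lower (95% interval 2.3 to 6.33; adjusted p = 0.00108). Every EIH array lay below every saline array. RT1-Bb read 11.18, 11.30, 10.62 and 10.42 against 12.49, 12.90, 12.73 and 12.13, at -1.68 ± 0.42 or 3.21-fold lower (adjusted p = 0.0107). Its alpha-chain partner RT1-Ba read 7.58, 8.45, 8.21 and 7.91 against 9.14, 9.91, 9.78 and 9.17, at -1.46 ± 0.44 or 2.75-fold lower (adjusted p = 0.0336).

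Ciita, the coactivator, read 6.20, 5.59, 6.42 and 6.78 after EIH against 7.83, 7.95, 7.14 and 7.62 after saline, at -1.39 ± 0.35 or 2.62-fold lower (adjusted p = 0.012). These 4 members passed the test, all lower, beside 6.91% of all genes called lower and 12.5% in either direction. Cd74 read 12.91, 13.80, 13.49 and 13.12 against 14.42, 14.12, 14.12 and 14.22, and its groups did not overlap. Its difference of -0.89 had an SE of 0.98 (adjusted p = 0.636), since the fit shares 1 spread over all blood groups and the Cd74 value of 6.96 enters it. Without that AMPH 1 day array the SE was 0.33 and the adjusted p 0.0848.

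For RT1-Db1 the EIH arrays read 11.79, 11.94, 11.38 and 11.27, against 13.31, 9.46, 12.88 and 12.74 after saline. The difference of -0.50 ± 0.59 did not pass (adjusted p = 0.661). Without the saline array at 9.46 it was -1.38 ± 0.38 (adjusted p = 0.0264), and the dimmer probes ranked 2 and 3 gave -1.43 (adjusted p = 0.0184) and -1.99 (adjusted p = 0.0247). Counting arrays, 5 of 6 members lay wholly below saline, beside 13% of all genes. RT1-Ba is the least firm of the called members: it kept its call in 3 of the 8 fits that left out 1 array of these groups and lost it in the mean over its 2 probes (-0.66, adjusted p = 0.494), the dimmer probe being measured on 10 of 24 blood arrays.

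Amphetamine at 3 h gave lower values for the same chains, with fewer calls. RT1-Bb read 11.70, 10.26, 11.24 and 11.41, at -1.41 ± 0.42 or 2.65-fold lower than saline (adjusted p = 0.0409). RT1-Ba read 8.12, 7.29, 8.38 and 8.41, at -1.45 ± 0.44 or 2.73-fold lower (adjusted p = 0.0458). These were 2 of 6 members, beside 3.43% of all genes called lower and 8.37% in either direction. RT1-Da read 12.77, 11.28, 12.37 and 11.89, at -1.12 ± 0.35, and missed the threshold (adjusted p = 0.0531).

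Counting arrays, 4 of 6 members (RT1-Da, RT1-Ba, RT1-Bb and Cd74) lay wholly below saline after AMPH, beside 10.2% of all genes. Both calls lie near the threshold. Neither remained without AMPH replicate 2, AMPH replicate 4, or saline replicate 1, 2 or 3, 1 of them remained without AMPH replicate 1 (RT1-Bb, where RT1-Da also passed), AMPH replicate 3 (RT1-Ba) or saline replicate 4 (RT1-Bb), and neither passed after quantile normalization (adjusted p = 0.0607 for RT1-Ba and 0.0502 for RT1-Bb). The dimmer probe of RT1-Ba alone gave 0.26 ± 1.04 (adjusted p = 0.933). With the mean over probes RT1-Ba was at -0.99 ± 0.52 (adjusted p = 0.303) and RT1-Bb at -1.48 ± 0.49 (adjusted p = 0.0696), neither called, while RT1-Da passed at -1.28 (adjusted p = 0.0268).

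Ciita after AMPH read 8.59, 6.86, 7.67 and 7.05, a difference from saline of -0.09 ± 0.35 (adjusted p = 0.928), and every AMPH array was above every EIH array of 3 h. Set directly against EIH, Ciita was higher after AMPH by 1.29 ± 0.35 (unadjusted p = 0.00145, adjusted p = 0.18). Of the members 0 of 6 passed in this comparison by limma, beside 0.0397% of all genes in either direction. At an unadjusted p under 0.05 there were 2, beside 9.47% of all genes. Only Ciita lay wholly above EIH, beside 3.47% of all genes.

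At 1 day after hyperthermia the 6 blood differences from saline of 1 day were all above 0, from 0.35 (RT1-Da) to 0.68 (Ciita), with a median of 0.43, and none of the 6 passed (adjusted p 0.516 to 0.897; 0 had an unadjusted p under 0.05, as 10.1% of all genes did), beside 0.0512% of all genes. RT1-Da read 13.94, 13.44, 13.93 and 14.27 after EIH and 12.90, 13.73, 13.88 and 13.65 after saline, and the groups overlapped. Ciita read 9.47, 8.77, 9.12 and 9.26 against 8.05, 8.15, 8.73 and 8.96, with overlap as well. Of the members 0 of 6 lay wholly above saline there, and the share of all genes wholly above was not counted. Wholly below lay 3.94% of all genes, which members with differences above 0 cannot do.

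The test of whether the EIH difference had itself changed between 3 h and 1 day called 4 members. The signed difference at 1 day lay above that at 3 h by 2.28 ± 0.50 for RT1-Da (adjusted p = 0.0108), 2.07 ± 0.50 for Ciita (adjusted p = 0.0172), 2.07 ± 0.59 for RT1-Bb (adjusted p = 0.0358) and 2.06 ± 0.62 for RT1-Ba (adjusted p = 0.0437), beside 4.82% of all genes called in this direction and 8.62% in either. Each time was set against its own saline group, so a constant shift between the 2 normalized sets cancels in this contrast. The calls of RT1-Da and Ciita held in all 16 fits that left out 1 array of the 4 groups, and those of RT1-Bb and RT1-Ba in 7 and 6 of them. The 2 saline groups themselves differed by -0.12 to 1.14 between the times, and 0 of 6 members passed (beside 0.484% of all genes in either direction), 1 of them, Ciita, with an unadjusted p under 0.05, as had 14.3% of all genes.

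One day after amphetamine the 6 differences in blood were all below 0, from -0.07 (Ciita) to -2.08 (Cd74), with a median of -0.70. None of 6 passed (adjusted p 0.253 to 0.947), beside 1.95% of all genes in either direction. That background is unsteady: 191 genes were called with all arrays, 27 without AMPH replicate 4, 57 without AMPH replicate 3, 65 without saline replicate 4, 94 without saline replicate 3 and 375 without saline replicate 1. RT1-Da and Cd74 had an unadjusted p under 0.05, as had 17.7% of all genes. No member lay wholly below saline, beside 5.09% of all genes. The arrays were uneven. RT1-Da read 13.27 and 13.50 in replicates 1 and 2, inside the saline range of 12.90 to 13.88, and 11.76 and 12.55 in replicates 3 and 4, below it.

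RT1-Db1 read 13.19 and 13.34 in replicates 1 and 2 and 11.39 and 12.44 in replicates 3 and 4. Summed neutrophil markers were at 14.96 and 15.03 in the former and 16.80 and 16.32 in the latter (log2 of the summed intensity), and T cell markers at 14.66 and 14.69 against 13.76 and 14.07. B cell markers were at 13.43 and 13.66 against 12.29 and 13.19 (saline of 1 day 12.75 to 13.86). Dendritic cell markers were at 12.34 and 12.47 against 11.24 and 11.91 (saline 12.18 to 12.61). Monocyte and macrophage markers were at 16.57 and 16.61 against 16.62 and 17.02 (saline 15.64 to 16.14). The part of these cells was not tested. Without replicate 4 the Cd74 difference was -0.38 ± 0.35 (adjusted p = 0.683). Against EIH of 1 day, AMPH was lower in all 6 (median -1.13); 0 passed, beside 0% of all genes, while 5 had an unadjusted p under 0.05, beside 11.7% of all genes. RT1-Db1 alone lay wholly below EIH there, beside 6.37% of all genes. The change of the AMPH difference between 3 h and 1 day was called in 0 of 6 members, beside 0.379% of all genes, and 0 had an unadjusted p under 0.05, beside 13.5%.

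**Figure D3:**
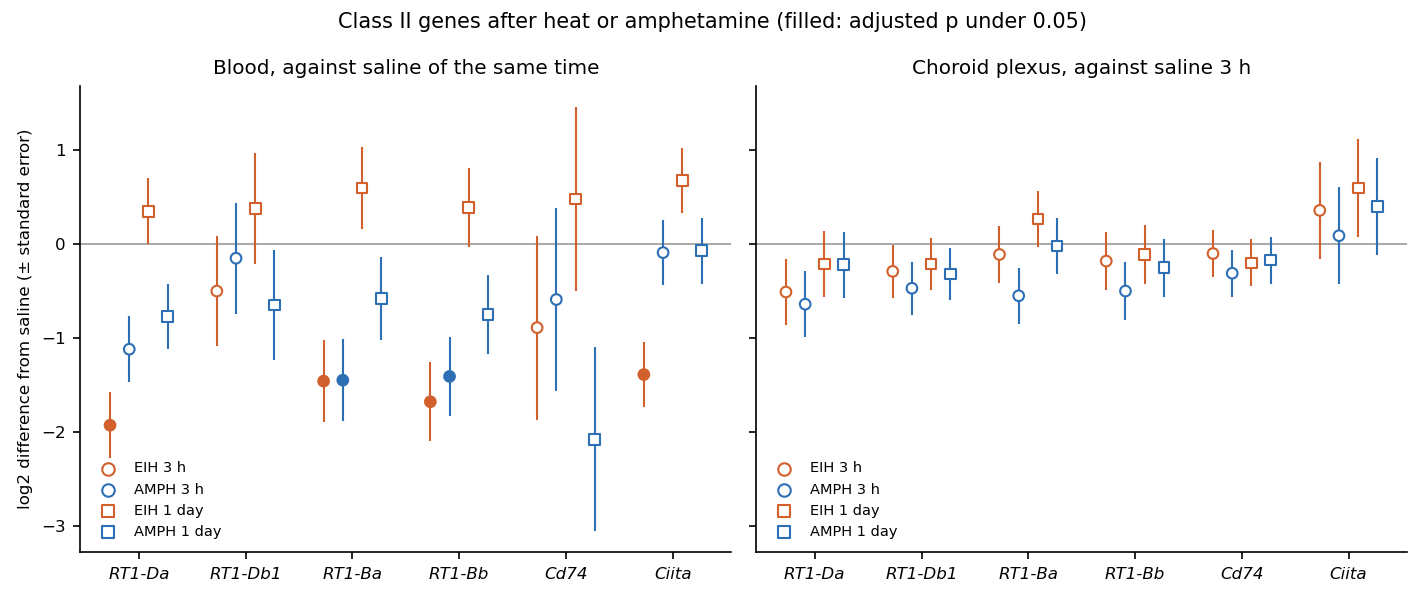
Log2 difference from saline of each class II gene with its standard error, in blood (saline of the same time) and choroid plexus (saline of 3 h), 4 arrays per group; filled symbols passed an adjusted p under 0.05. In blood 4 genes passed after EIH and 2 after AMPH at 3 h, and none at 1 day or in choroid plexus.

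In choroid plexus no member was called after either treatment. After EIH at 3 h the median difference was -0.14 (range -0.51 for RT1-Da to 0.36 for Ciita), and after AMPH at 3 h it was -0.49 (-0.64 for RT1-Da to 0.09 for Ciita). None of 6 members passed in either by limma, beside 0.341% and 0.156% of all genes in either direction. Against the same saline pools the 1 day medians were -0.16 for EIH and -0.20 for AMPH, and 0 of 6 passed in each, beside 0% and 0.0294% of all genes. In these 4 comparisons 0 members had an unadjusted p under 0.05, beside 12.3% to 16.9% of all genes. At 1 day 0 of 6 lay wholly below saline after EIH (1.16% of all genes) and 0 of 6 after AMPH (1.82%).

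By their brightest probes, the 3 chains RT1-Da, RT1-Db1 and RT1-Bb read lower in every AMPH 3 h pool than in every saline pool, beside 5.66% of all genes. RT1-Db1 read 9.94, 10.22, 9.67 and 9.67 after AMPH and 10.33, 10.32, 10.34 and 10.40 after saline, and RT1-Bb 8.45, 8.98, 8.63 and 8.24 against 9.04 to 9.17. The differences, -0.47 ± 0.28 and -0.50 ± 0.31, did not pass (adjusted p 0.41 or more over the 6 members). After EIH at 3 h 0 of 6 lay wholly below, beside 7.63% of all genes.

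Set against each other, the 2 treatments gave no called member in choroid plexus. At 3 h AMPH minus EIH ranged from -0.44 to -0.13 with 0 of 6 passing, beside 0.00973% of all genes, and at 1 day from -0.29 to 0.03 with 0 of 6, beside 0% of all genes. In both comparisons 0 members had an unadjusted p under 0.05, beside 2.83% and 5.43% of all genes.

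One pool stood apart at 1 day. AMPH replicate 2 read 11.39 for RT1-Da, 10.03 for RT1-Bb and 12.12 for Cd74, against 9.59 to 9.94, 8.32 to 8.53 and 10.74 to 11.25 in the other 3 pools of its group. The same pool had summed erythroid and platelet markers at 15.22 (11.90 to 12.31 in the others), endothelial and stromal markers at 17.15 (13.83 to 14.36), monocyte and macrophage markers at 16.19 (13.64 to 14.45) and epithelial markers at 17.61 (18.70 to 18.78). EIH 1 day replicate 1, the highest of its group for RT1-Da (10.76), RT1-Db1, RT1-Bb, Cd74 and Ciita, had erythroid and platelet markers at 13.16 against 11.82 to 12.24 and endothelial and stromal markers at 16.42 against 14.18 to 14.39. The part of other cells in these values was not tested. Without AMPH replicate 2, 0 of 6 members passed in any comparison within choroid plexus.

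Whether blood and choroid plexus responded differently to EIH at 3 h was tested directly. The blood difference was more negative in all 6 members, with a difference between the tissues of -1.74 ± 0.62 for Ciita, -1.51 ± 0.54 for RT1-Bb, -1.42 ± 0.50 for RT1-Da and -1.35 ± 0.55 for RT1-Ba (log2). In the fit over 44 arrays 0 of 6 passed (smallest adjusted p 0.0846), beside 6% of all genes in either direction. These 4 had an unadjusted p under 0.05, as had 20.1% of all genes. RT1-Da passed without choroid plexus AMPH 1 day replicate 2 (adjusted p = 0.041). For AMPH the corresponding count was 0 of 6, beside 3.11% of all genes, with 0 at an unadjusted p under 0.05, beside 17.9%.

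Other genes of the pathway moved in both directions in blood. Of 14 measured genes for loading, processing and co-stimulation, 2 fell and 2 rose after EIH at 3 h. Of all genes, 6.91% were called lower and 12.5% in either direction. The median difference was 0.01 against -1.42 for the 6 members and 0.08 for all genes. Both that fell encode RT1-DO, the modulator that restrains peptide exchange in B cells. RT1-DOa read 6.86, 6.65, 6.55 and 6.78 after EIH against 8.61, 7.67, 7.64 and 8.44 after saline (-1.38 ± 0.42, adjusted p = 0.036). RT1-DOb read 7.48, 7.53, 6.99 and 7.01 against 8.54, 8.62, 8.61 and 8.21 (-1.24 ± 0.32, adjusted p = 0.0142).

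For both RT1-DO chains the groups were separate. RT1-DMa, a chain of the peptide exchanger itself, had a difference of -0.34 ± 0.33 (adjusted p = 0.583). The genes that rose were the lysosomal proteases Ctsh, by 1.81 ± 0.27 (adjusted p = 0.000233), and Ctsd, by 0.65 ± 0.18 (adjusted p = 0.0218). Ifi30, a lysosomal thiol reductase, was at -0.41 ± 0.22 and Ctss at -0.01 ± 0.21, neither called.

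After AMPH at 3 h the same 2 RT1-DO chains fell, RT1-DOa with a log2 difference of -1.92 (adjusted p = 0.00882) and RT1-DOb of -1.13 (adjusted p = 0.0339), and Ctsh rose by 1.36. Both treatments share their saline arrays. For RT1-DOa and RT1-DOb the EIH difference also changed between 3 h and 1 day, by 2.58 ± 0.60 and 1.94 ± 0.46 (adjusted p = 0.0148 and 0.0158). At 1 day after AMPH, Ctsh and the asparaginyl endopeptidase Lgmn were higher, by 1.56 and 1.13, and neither RT1-DO chain was called (-0.01 and -0.11).

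**Figure D4:**
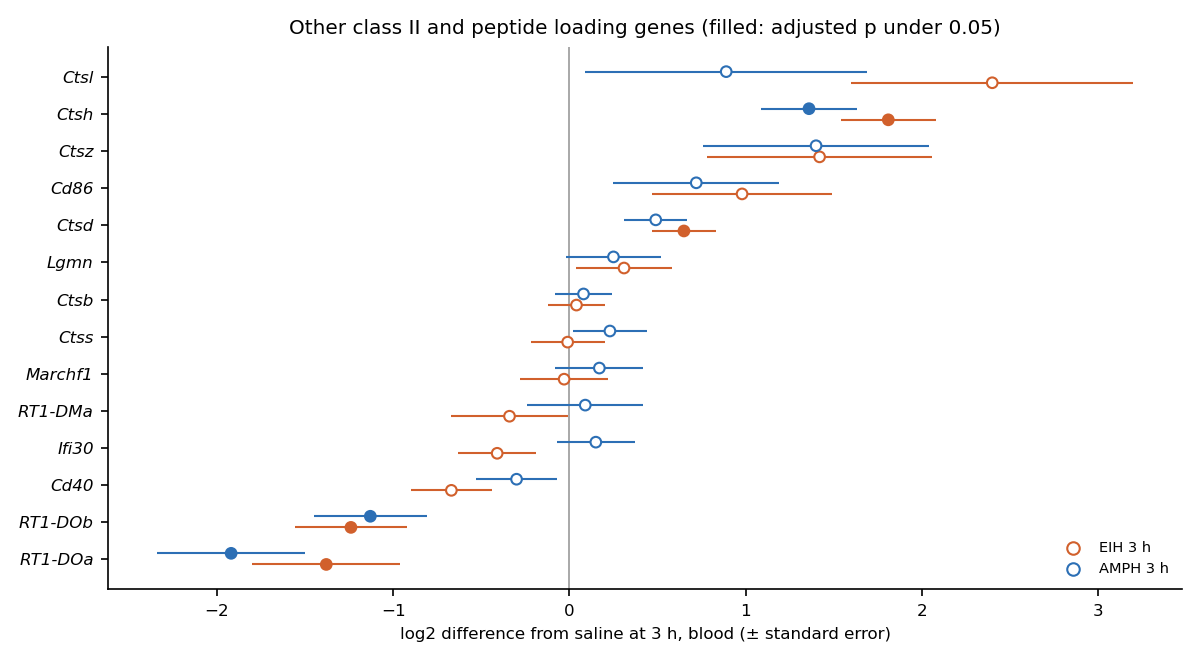
Log2 difference from saline at 3 h in blood, with its standard error, of 14 genes for class II peptide loading, processing and co-stimulation, 4 arrays per group (3 for Cd86 after EIH); filled symbols passed an adjusted p under 0.05. RT1-DOa and RT1-DOb lie below 0 after both treatments and Ctsh above 0.

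Regulators of class II transcription were called in both directions in blood. Among 18 measured genes of class II transcription, 3 rose and 1 fell after EIH at 3 h (median 0.26). Of all genes, 12.5% were called there in either direction and 6.91% lower. Spi1, a myeloid and B cell transcription factor, read 9.46, 9.25, 10.05 and 9.91 after EIH against 7.96, 8.18, 7.98 and 7.49 after saline (1.77 ± 0.31, adjusted p = 0.000775). Creb1, which can bind the cyclic AMP response element, rose by 0.89 and Irf1, an interferon-induced factor, by 0.85. Nfyb, a subunit of the Y box factor NF-Y, fell (-0.90, adjusted p = 0.0313). Rfx5 and Rfxank, subunits of the X box factor, were at 0.98 ± 0.69 and -0.42 ± 0.21 and were not called.

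After AMPH at 3 h Spi1 (1.76), Ifngr2 (0.78), a chain of the interferon-gamma receptor, and Creb1 (0.76) rose and 0 of the 18 fell. Of all genes, 8.37% were called after AMPH in either direction and 3.43% lower. The class I pathway, which presents cytosolic peptides, had 6 of 19 genes lower after EIH at 3 h, beside 6.91% of all genes. Its median was -0.09, and the genes called lower were led by the non-classical chain RT1-M3-1 (-1.83) and the immunoproteasome subunit Psmb10 (-0.97).

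Markers of the cells that carry class II moved in blood too. Over all genes, 6.91% were called lower and 12.5% in either direction after EIH at 3 h. There 3 of 13 B cell genes fell, Fcer2 (-2.39), Cd79b (-1.67) and Ms4a1 (-1.35), and the list's median was -0.54. Cxcr5 (0.65), Blk (0.44), Btk (0.33) and Cr2 (0.08) lay above 0 and were not called, and the remaining genes of the list lay below 0, not called. The summed B cell level, in which bright genes weigh most, ranged from 12.12 to 12.92 after EIH and from 13.28 to 13.88 after saline. For T cells, which carry little class II in the rat at rest, 12 of 15 genes fell (median -2.07). Neutrophil genes rose in 7 of 11 (median 2.03) and monocyte and macrophage genes in 6 of 21 (median 0.52), Cd14 by 2.85. Of 8 dendritic cell genes, 2 fell, Ccr7 and Itgae, and the median was 0.07.

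The AMPH list medians at 3 h were -0.42 for B cells, -1.81 for T cells, 1.75 for neutrophils and 0.69 for monocytes and macrophages. At 1 day after EIH they were 0.63, 0.00, -0.24 and 0.19 with no gene of these lists called, and at 1 day after AMPH they were -0.27, -0.91, 1.11 (2 genes higher) and 0.91 (4 genes higher). Erythroid and platelet genes had medians within 0.07 of 0 in all 4 comparisons of blood with saline. Of the epithelial genes of choroid plexus, Ttr read higher in blood after AMPH at 3 h by 5.05 (adjusted p = 0.0365), the 1 of 15 such genes called. The part of these cells in the class II differences was not tested.

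**Figure D5:**
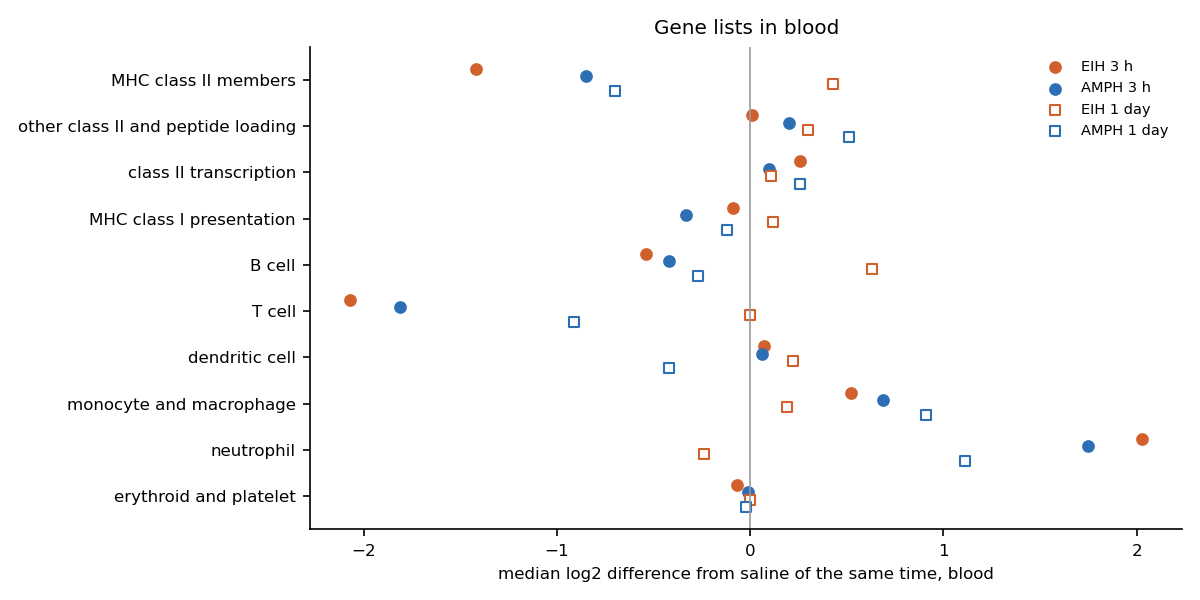
Median log2 difference from saline of the same time in blood for the 6 class II members and 9 gene lists; circles are 3 h and squares 1 day. At 3 h the class II members lie at -1.42 (EIH) and -0.85 (AMPH), on the same side as the T cell and B cell lists and opposite to the neutrophil list.

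The members correlated positively over the arrays of each tissue, in blood more weakly once group means had been subtracted. Over the 24 blood arrays the 15 pairs of members had Pearson correlations of 0.21 to 0.93 (median 0.62; Spearman median 0.81), and after each group's mean had been subtracted 0.13 to 0.84 (median 0.25; Spearman 0.43). The low Pearson values include pairs with Cd74 and RT1-Db1, each of which has 1 far array. Over the 20 choroid plexus pools the range was 0.31 to 0.96 (median 0.64), and 0.27 to 0.97 within groups. The arrays of a tissue cover both times, which appear to have been normalized separately. Correlations over all arrays of a tissue therefore also hold the difference between sets, and these values are descriptions.

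In blood the mean over members, each centred on its tissue mean, ran with the summed B cell level at r = 0.85 (Spearman 0.85; 0.81 without the 2 arrays farthest from the median; 0.64 within groups) and with the T cell level at 0.81 (0.75; 0.81; 0.45). Against the neutrophil level it was -0.87 (-0.85; -0.87; -0.64), against the monocyte and macrophage level -0.71 (-0.69; -0.72; -0.22), against the dendritic cell level 0.32 (0.44; 0.27; 0.41) and against the erythroid and platelet level 0.01 (-0.14; 0.06; 0.61). With the other class II and peptide loading genes it was -0.83 (-0.85; -0.80; -0.48). That level is a summed intensity too, in which bright genes weigh most. It need not follow the dimmer RT1-DOa and RT1-DOb, which fell in blood at 3 h as members did. In choroid plexus the largest values were with endothelial and stromal markers (0.71) and erythroid and platelet markers (0.69), and they fell to 0.06 and 0.20 without the 2 farthest pools. With T cell markers the value was 0.68 and 0.49 without those pools.

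The genes most like the members in blood, by Pearson correlation with that mean over 24 arrays among 5988 genes measured on every array, were Rpl27 (0.95) and Rpl5 (0.94), proteins of the large ribosomal subunit, Ruvbl1 (0.94), Ppa2 (0.93), Acp5 (0.93), Pold1 (0.92), Cxxc5 (0.92) and Tfam (0.92). Each kept at least 0.91 without the 2 farthest arrays. In choroid plexus, over 20 pools and 6852 genes, they were Mme (0.82), the complement component C3 (0.81), Il13ra2 (0.77), Ptpro (0.76), Itm2a (0.75), Adk (0.75) and the interferon-induced genes Irf7 (0.74) and Oasl2 (0.74). Without the 2 farthest pools these ranged from 0.37 for Itm2a to 0.71 for Mme.

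The 2 probes of RT1-Da had a correlation of 0.98 over the blood arrays and 0.87 over the choroid plexus pools. The 2 probes of RT1-Ba, both measured on 10 arrays of each tissue, gave -0.24 in blood and -0.26 in choroid plexus. For RT1-Db1 the brightest and second probes gave 0.67 in blood, where 1 array differs by -3.25, and 0.95 in choroid plexus. The second probe of RT1-Bb gave 0.68 in blood and -0.29 in choroid plexus, where it is 1.46 below the brighter probe in the median. Cd74 and Ciita each have 1 probe, so an odd value of theirs has no second reading.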

How the data were processed

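Total RNA was labelled with Cy3 on Agilent single-colour arrays, per the labels' protocols. The deposited values are linear intensity values of 14055 probes on 44 arrays, with 0 columns of other samples; how the authors normalized them, and why cells are blank, is not given in the sources used here. Log2 was taken, blanks stayed missing (3.05% of choroid plexus and 8.57% of blood values), and the probe with the highest mean stood for its gene. Of 12926 probes with 1 symbol, 11481 were named through their accession; 1129 had none. Promoters come from RefSeq, assembly GRCr8.

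limma 3.58.1 (R 4.3.3) fitted group means per gene to the 20 choroid plexus or 24 blood arrays, the 8 saline arrays of 3 h for the tissues, or all 44 for effects between tissues. Tests are two-sided, need at least 2 values per group, and call at a Benjamini-Hochberg adjusted p under 0.05 over all genes of a comparison. The number of arrays limits the precision, and p-values measure the spread between these rats or pools. The fit was tested on simulated data first, for EIH 3 h against saline. It recovered 42% of 2-fold and 67% of 4-fold changes in choroid plexus, and 22% and 41% in blood. The simulation changed 200 genes, whereas the data called 35 in choroid plexus and 1232 in blood. The adjusted p depends on how many genes change, so these rates need not hold for the data. A member that was not called may still have changed.

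The members and lists were chosen with earlier results of these data known. Named in each comparison are the 6 members, at most 4 called genes per list with the largest difference, and in each tissue the 8 genes most like the members (measured on every array, mean log2 of at least 6, no predicted loci). Figures used Python 3.11.15, pandas 2.3.3 and matplotlib 3.10.9. Alternatives were quantile normalization, equal medians, no genes of the lowest 25%, a trend with robust spread, array weights, the mean over probes, each probe alone, leaving out each array or pools with a recurring rat, and shared rats as a block; fits without blood AMPH 1 day replicate 4, without it and blood saline 3 h replicate 2, and without choroid plexus AMPH 1 day replicate 2 were added after seeing the data. Meninges data were not analysed here.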

Additional observations from a re-analysis of the deposited data

Results flagged for a closer look

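Of 66 combinations of a member and a group of 4 arrays, 5 had 1 array far from the other 3 by Dixon's criterion, where chance gives about 1 in 20. These were RT1-Db1 in blood saline 3 h (9.46), RT1-Da in blood saline 3 h (13.56), RT1-Db1 in choroid plexus EIH 3 h (10.67), RT1-Bb in choroid plexus saline 3 h (9.17) and RT1-Bb in choroid plexus AMPH 1 day (10.03). The Cd74 value of 6.96 in blood AMPH 1 day was not among them, since another array of its group was also low.

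The EIH difference from saline in blood changed between 3 h, where it was below 0 and called, and 1 day, where it was above 0 and not called. In the test of the change itself, 1 day minus 3 h was 2.28 for RT1-Da, 2.06 for RT1-Ba, 2.07 for RT1-Bb and 2.07 for Ciita.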

How the results depend on the processing

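Counts of called members kept to within 1.5 times under every alternative run except these. For blood AMPH 3 h (2 called) it was 1 with the mean over probes (RT1-Da in place of RT1-Ba and RT1-Bb), 0 after quantile normalization, 1 without blood AMPH 1 day replicate 4 and 0 without it and blood saline 3 h replicate 2. The change of the EIH difference in blood (4) had 2 without both. The EIH difference between tissues (0) had 2 with array weights, 2 with the mean over probes, 1 without choroid plexus AMPH 1 day replicate 2 and 1 without pools with a recurring rat. Leaving out 1 array of the compared groups gave 3 to 4 for blood EIH 3 h, 0 to 2 for AMPH 3 h, 2 to 4 for the change of the EIH difference and 5 to 6 between tissues at saline. Only 2 called members remained in the change of the EIH difference without blood EIH 1 day replicate 3 or 4, EIH 3 h replicate 3 or 4, saline 1 day replicate 1 or 4, or saline 3 h replicate 1, 2 or 3. With shared rats as a replicate block, 5 members were called between tissues at saline and 0 in both effects between tissues, as without the block; replicate numbers follow accession order and pair nothing. Counts over all genes moved more: with array weights 957 were called for choroid plexus EIH 3 h (35 otherwise), 1212 for AMPH 3 h (16), 1441 for blood AMPH 3 h (826) and 1374 for the change of the EIH difference (817), and without choroid plexus AMPH 1 day replicate 2 the first pair were 164 and 330. With 4 arrays a group, the number of arrays limits the precision. For EIH 3 h against saline, the SE of Ciita was the largest of the members in choroid plexus (0.52). In blood the SE of Ciita was 0.35, as for RT1-Da, and the largest was that of Cd74 (0.98).

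Of 2031 values of single members under the alternatives, 26 changed sign by more than 1 SE or from a call, and 1 of those was a called value: RT1-Ba in blood AMPH 3 h, at 0.26 by its dim second probe. By a second probe alone, values turned for RT1-Ba in choroid plexus EIH 3 h (0.36), RT1-Bb in blood AMPH 1 day (0.37) and choroid plexus AMPH against EIH 3 h (0.34), RT1-Da in saline 1 day against 3 h (-0.01), and RT1-Db1 in the AMPH difference between tissues (-0.45) and its change over time (0.76). By the third probe of RT1-Db1 they turned in blood AMPH 1 day (0.39) and in choroid plexus AMPH 1 day (0.15), EIH 1 day (0.18) and AMPH against EIH 3 h (0.47). With the mean over probes they turned for RT1-Ba in the change of the AMPH difference (-0.05), blood EIH 1 day (-0.27) and choroid plexus EIH 1 day (-0.05), and for RT1-Bb in choroid plexus AMPH against EIH 3 h (0.01). Array weights turned Ciita in blood AMPH 1 day (0.29). Leaving out 1 array gave -2.30 to 0.21 for Cd74 in the change of the AMPH difference, -0.24 to 0.22 for Cd74 in choroid plexus AMPH against EIH 1 day (-0.31 without recurring rats, -0.24 without AMPH 1 day replicate 2), and for RT1-Db1 -0.56 to 0.72 in the AMPH difference between tissues and -0.90 to 0.38 in its change over time. Without blood AMPH 1 day replicate 4 the Cd74 change was 0.21, and without it and blood saline 3 h replicate 2 it was 0.24, with RT1-Db1 at -0.56 and 0.43. The cause was not tested.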
